A study of Drosophila melanogaster with 4 samples.

Results

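Arm 2L, the left arm of chromosome 2 of *Drosophila melanogaster*, carried 569 of the 2970 peaks of GFP-tagged Usp that the deposited list places on the 6 chromosome arms, and 569 of 3053 in the whole list. The members are all peaks listed on 2L whose midpoint does not fall between 21220000 and 21270000, the interval that the selection assigns to the nuclear receptor gene *Hr39*. Its 9 peaks were left out of the 578 on the arm. Membership rests on position alone, so neither the score nor the width of a peak entered it. Gene positions in FlyBase release 5, the build of the list, were not used here, so regions are named by their coordinates.

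The chromatin came from whole wandering larvae (L3) of the strain USP-GFP, labelled with the genotype PBac{y[+]-attP-3B}VK00033 and a transgene of the *usp* genomic coding region, sex unknown. Precipitation with a polyclonal rabbit antibody against GFP gave 2 ChIP libraries, which were set beside 2 input libraries of the same strain and stage. All 4 libraries share the transgene, and none was made from larvae without the tag. Growth at 25 °C and crosslinking for 15 min in 1.8% formaldehyde are also recorded for all 4. The labels do not say whether the endogenous *usp* gene was still intact, and their protocol speaks of *y; bw cn sp* flies instead of the tagged line. The list gives 1 score per peak for all libraries together, so no peak has a value per library, a replicate spread or a known depth.

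Ultraspiracle, the product of *usp*, is a nuclear receptor of the same family as the retinoid X receptors of vertebrates. It pairs with the ecdysone receptor EcR, and the pair binds response elements in DNA and switches genes on or off depending on whether the steroid 20-hydroxyecdysone is bound. Pulses of that hormone end larval growth and start metamorphosis, and several genes of this cascade encode further nuclear receptors. Wandering larvae have just left the food and stand close to pupariation. In chromatin from a whole animal, strong binding in few cells and weak binding in many cannot be told apart.

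The labels do not say what the score measures, but for most members a height can be inferred from it. Of the 52 score values that at least 10 peaks of the whole list share, 50 lay within 0.01 of −log10 of the Poisson probability of a whole number of fragments or more over a fitted background of 43.9. The other 2, 8.19 and 9.77, missed it by less than 0.015 and belong to 26 peaks on 2L. Of the 569 peaks on 2L, 427, or 75.0% (exact 95% interval 71.3 to 78.5%), lay within 0.01 of this series. For these a pileup, the implied number of overlapping fragments, and its fold over the background are given below, with exact Poisson intervals for counting error alone. The other 142 have a score and no fold. On the other arms together the share on the series was close to that on 2L, 75.0% (1793 of 2392), so it is not particular to 2L.

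Peaks on 2L were mostly low and narrow, with a tail of tall and of broad ones. The median score was 12.55 (interquartile range 10.11 to 17.61), from 6.19 to 98.48. On the series, the median pileup was 100 fragments, 2.28 times the background, with an interquartile range of 2.14 to 2.60 times and extremes of 1.82 and 5.58 times. The median width was 329 bp (interquartile range 251 to 537 bp), from 201 to 5912 bp. The typical member was thus a short stretch, and on the series it stood at a little over 2 times the background. Peaks off the series, which have no fold, had a lower median score, 10.465 against 12.55 on it. They include the 26 peaks at 8.19 and 9.77, which missed the series by less than 0.015, so this median depends on the tolerance. Together the peaks covered 287 kb, 1.28% of the 22.4 Mb between the first and the last of them, at 25.4 peaks per Mb.

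**Figure D1:**
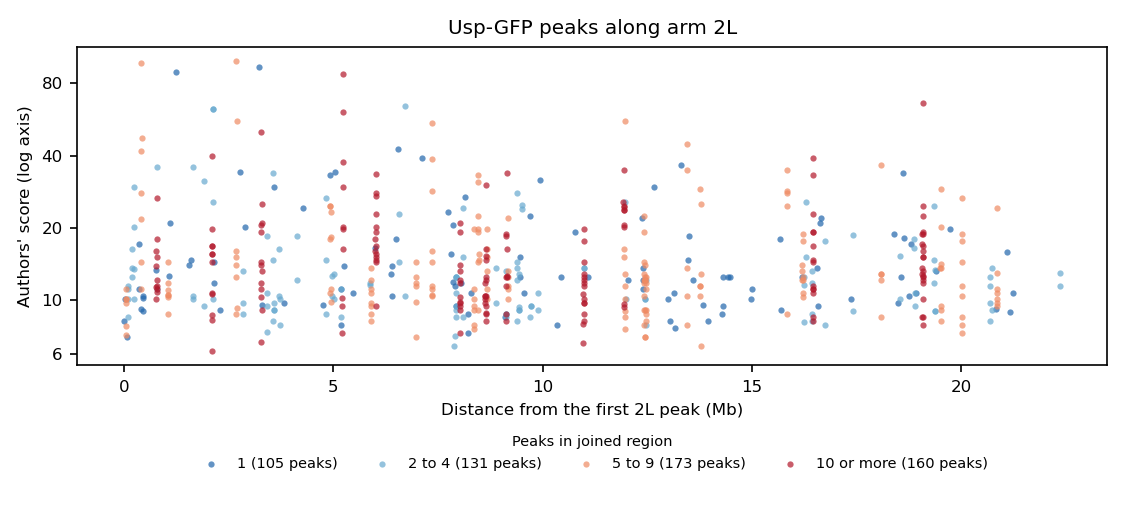
Each point is 1 of the 569 Usp-GFP peaks on 2L, with its distance from the first peak in Mb on the x axis and the authors' score on a log y axis; colours give the number of peaks in the joined region it belongs to. Peaks stand in vertical stacks with empty stretches between them, and 9 of the 10 highest scores lie in the first 7 Mb of the arm.

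Binding was spread unevenly along the arm. Positions on 2L count from the telomere towards the centromere. The megabase from 8 to 9 Mb held the most peaks, 63, followed by 12 to 13 Mb with 51 and 0 to 1 Mb with 47. These 3 megabases were rich in different ways: the highest score was 97.13 in the first megabase, 33.19 from 8 to 9 Mb and 55.72 from 12 to 13 Mb. At the other end of the range, 10 to 11 Mb held 4 peaks, 17 to 18 Mb held 3, 21 to 22 Mb held 3 once the *Hr39* interval was left out, and the megabase from 22 Mb on held 2.

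Most of the tallest peaks lay towards the telomere, and the share of broad peaks was higher there. Of the 10 highest scores, 9 lay before 7 Mb, although only 198 of the 569 peaks did. Peaks wider than 1 kb made up 11.6% of the members before 7 Mb (23 of 198) and 5.39% of those beyond it (20 of 371). Of these 23, 6 lay between 5283560 and 5307105 and 4 between 6074477 and 6093299, so a few stretches weigh on that share. The median scores of these parts were close, 13.1 before 7 Mb and 12.2 beyond it. The 7 Mb limit was chosen after the positions were seen, so the difference was not tested.

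Long stretches had no called peak. The longest ran for 1.12 Mb from 21310431 to 22429476, between the last peak on the telomeric side and the pair of weak peaks that end the list on this arm. The second, 840 kb from 11155519 to 11995458, ended at one of the regions with most strong peaks, described below. The one after that, 686 kb from 15057697 to 15743614, was followed by a peak with a score of 18.03. Stretches over 500 kb numbered 6 and made up 20.5% of the span. How many reads could map to them was not checked.

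Where peaks occurred they stood close together. Joining peaks no more than 5 kb apart, edge to edge, left 193 regions: 105 with a single peak and 88 with several. Joining at 1 kb instead left 313. Within the joined regions, 376 gaps separated neighbouring peaks, with a median of 561.5 bp (interquartile range 210 to 1195 bp). The shortest gap was 44 bp, and 58 of the 376 gaps, 15.4% (exact 95% interval 11.9 to 19.5%), were under 100 bp. Of all members, 47.5% had a neighbour within 500 bp and 81.5% within 5 kb. Between regions the median gap was 48.2 kb.

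Peaks in larger regions had higher median widths. Single peaks had a median width of 282 bp, against 285 bp in regions of 2 to 4 peaks, 371 bp in regions of 5 to 9 and 380 bp in regions of 10 or more. Of single peaks, 1.90% (2 of 105) were wider than 1 kb, against 4.58% (6 of 131), 6.94% (12 of 173) and 14.4% (23 of 160) in the same 3 classes. Median scores did not follow that order. They were 12.55 for single peaks, 11.48 for regions of 2 to 4, 12.19 for 5 to 9 and 13.78 for 10 or more. Single peaks were thus the narrowest class without being the lowest. These differences between classes were not tested.

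**Figure D2:**
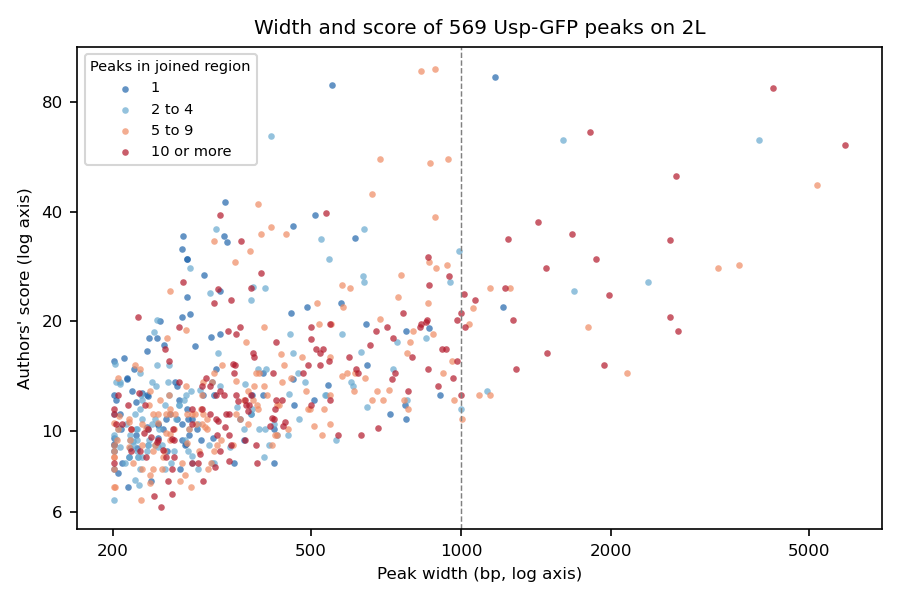
Each point is 1 of the 569 peaks on 2L, with its width in bp and the authors' score on log axes, coloured by the number of peaks in its joined region; the dashed line marks 1 kb. Of the 43 peaks right of the line, 23 belong to regions of 10 or more peaks and 2 stand alone.

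The 13 regions of 10 or more peaks held 160 peaks, 28.1% of the members (exact 95% interval 24.5 to 32.0%), on 229 kb, 1.02% of the span. They carried 36.3% of all peak-covered sequence on the arm. The interval takes peaks as independent, though they enter this class by whole regions, so it is too narrow. The share of each region that was covered by peaks ran from 19.8 to 76.5%, so some were near-continuous domains and in others most of the sequence lay between peaks. In 12 of the 13 the strongest peak lay inside the region, and in 1 it was the first peak. Most peaks of regions this large lie inside, so this count by itself shows no preference for the interior. The strongest peak scored 1.47 to 4.39 times the median score of its region. The number of such regions depends on the joining distance: joined at 1 kb, 3 regions held 10 or more peaks, and joined at 20 kb, 15 did.

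**Figure D3:**
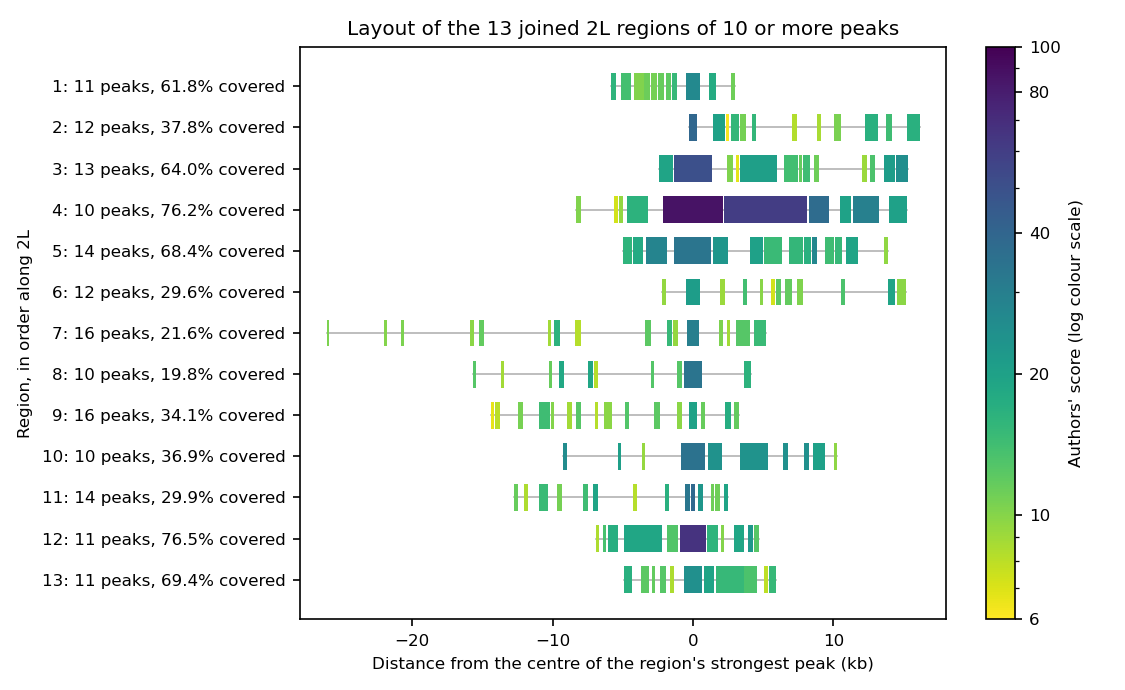
Each row is 1 of the 13 joined regions of 10 or more peaks, in order along 2L from the top, with peaks drawn to scale as boxes by distance in kb from the centre of the region's strongest peak and coloured by the authors' score. Rows 4 and 12 are filled by boxes over 76.2% and 76.5% of their length, while rows 7 and 8, at 21.6% and 19.8%, are strings of separate boxes.

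Among the 13, the 2 regions with the highest scores were dense domains. The region chr2L:5283560-5307105 (FlyBase release 5, as all positions here) was 23.5 kb long and 76.2% covered by 10 peaks, of which 6 were wider than 1 kb. Inside it a peak of 4233 bp, 5289753 to 5293985, reached a pileup of 232, 5.29 times the background (4.63 to 6.01), and only 124 bp further on a peak of 5912 bp, 5294110 to 5300021, reached 4.40 times (3.80 to 5.06). The second of these was the widest peak on the arm. Behind this pair, 4 more peaks of 831 to 1869 bp reached 2.69 to 3.51 times the background. In front of it, 4 peaks were lower, with scores of 7.31 to 16.38.

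The region chr2L:19135545-19147153 had the same near-continuous layout on 11.6 kb, 76.5% of it covered by 11 peaks. Its strongest peak, 19141573 to 19143386, was 1814 bp wide at 4.58 times the background (3.97 to 5.26), the only one of the 10 highest scores beyond 7 Mb. The next score in the region was 22.40, so 1 peak stood well above the rest. After a gap of 7354 bp came a second region, chr2L:19154508-19165320, with another 11 peaks covering 69.4% of it, the strongest at 2.94 times (2.45 to 3.49). With peaks up to 20 kb apart joined, both formed 1 region of 22 peaks over 29.8 kb.

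In 3 further regions peaks covered most of the sequence. The region chr2L:6074477-6093299 held 14 peaks on 18.8 kb, 68.4% covered, and 8 of the 14 were among the top 25% of all arm peaks by score, which is a score of at least 16.79. Its strongest peak, 6078109 to 6080736, had a score of 33.51 and lay off the series. It stood little above the others, with a next score of 28.10 and a median of 17.41. The region chr2L:3338806-3356557 held 13 peaks on 17.8 kb, 64.0% covered, with a peak of 2707 bp near its start, 3339898 to 3342604, at 4.01 times the background (3.44 to 4.65). Height was more concentrated here, since the next score was 25.19. The short region chr2L:841810-850659 was packed as well, with 11 peaks on 8850 bp and 61.8% coverage, but none of its peaks was wider than 1 kb and only 4 of the 11 lay on the series.

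The region chr2L:11995459-12015005 had the highest median score of the 13, 23.7. It lay directly after the 840 kb stretch without a peak, and 8 of its 10 peaks were in the top 25% by score. Only 5 of the 10 lay on the series, and the others have a score and no fold. The strongest, 12003890 to 12005562, stood at 3.39 times the background (2.87 to 3.99), only 1.47 times the region's median score. Peaks covered 36.9% of the region, and no single one dominated it. After a gap of 6490 bp followed a region of 9 peaks, chr2L:12021496-12029040, with the opposite pattern: 1 peak of 943 bp at 4.21 times (3.63 to 4.87) among peaks of 7.60 to 16.32 in score.

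Other regions were strings of peaks with wide gaps between them. The region chr2L:8691451-8722781 was the longest, 31.3 kb, and with 16 peaks shared the highest count, yet peaks covered 21.6% of it. Its strongest, 8717116 to 8717972, stood at 3.19 times the background (2.68 to 3.76), the only one of the 16 in the top 25% by score. The other region of 16 peaks, chr2L:11041262-11058993, had its strongest at 2.69 times (2.23 to 3.22) and no peak wider than 736 bp. It had the lowest strongest score of the 13, 19.73. The median scores of the pair, 10.45 and 11.06, lay below the 12.55 of the arm, so the regions with most peaks were made mostly of low ones.

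Low cover was also seen at chr2L:8083047-8100406 (12 peaks, 29.6% covered, strongest 2.76 times the background, 2.29 to 3.29) and at chr2L:9195345-9215156 (10 peaks, 19.8% covered, strongest 3.35 times, 2.83 to 3.94). The region chr2L:16520899-16536182 held 14 narrow peaks of at most 615 bp. Its strongest peak, 16533509 to 16533836, stood at 3.58 times the background (3.04 to 4.18) on a width of 328 bp. The region chr2L:2161752-2178187, with 12 peaks and 37.8% coverage, was the one whose strongest peak came first, 2161752 to 2162288, at 3.60 times (3.06 to 4.21). Its other peaks scored at most 19.89.

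The strongest peaks of the arm were not all in large regions. Of the 10 highest scores, 3 lay in regions of 10 or more peaks, 2 stood alone, and the other 5 lay in regions of 2 to 8 peaks. The highest score, 98.48, belonged to an 886 bp peak, 2751450 to 2752335, in a region of 8 peaks. It ranked 9 among all arm peaks. It lay off the series, so no fold is given. A peak of 689 bp at the end of the same region, 2759307 to 2759995, reached 4.21 times the background (3.63 to 4.87), and the 6 other peaks of the region scored at most 15.98. This region was thus a pair of tall peaks among low ones.

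The tallest peak on the series, 480424 to 481255, was 832 bp wide with a pileup of 245, 5.58 times the background (4.90 to 6.33). It belonged to chr2L:476644-490039, where 7 peaks covered 84.4% of 13.4 kb, the highest cover of the regions with 5 or more peaks. Immediately before it lay a peak of 392 bp at 3.69 times. Immediately after it lay one of 3286 bp at 3.10 times (2.60 to 3.67) and one of 5176 bp at 3.90 times (3.33 to 4.53), the second widest on the arm, with 45 bp between them. The tall peak thus bordered, on one side, broader and lower ones.

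The next highest folds belonged to peaks that stood alone. The peak 3301824 to 3302995, 1172 bp wide, had a pileup of 240, 5.47 times the background (4.80 to 6.21), and its nearest neighbour was 35.8 kb away. The peak 1301808 to 1302358, 551 bp wide, had a pileup of 234, 5.33 times (4.67 to 6.06), with its nearest neighbour 132 kb away. Their intervals overlap each other and those of the peaks at 480424 and 5289753, so the order of these 4 folds is not resolved by the counts. Both isolated peaks had folds within the interval of the strongest peak of the domain at chr2L:5283560-5307105, but no flanking peaks.

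Other solitary peaks followed at lower height. The next was 6612572 to 6612907, 336 bp wide at 3.71 times the background (3.17 to 4.33), and then 7188261 to 7188770, 510 bp wide at 3.58 times (3.04 to 4.18), with its nearest neighbour 139 kb away. In all, 31 of the 105 single peaks, 29.5%, were in the top 25% of arm peaks by score, against 55 of the 160 peaks in regions of 10 or more, 34.4%. Between these classes the share was lower, 18.3% in regions of 2 to 4 peaks and 24.9% in regions of 5 to 9.

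The remaining scores among the 10 highest came from a region of 4 and a region of 2 peaks. At chr2L:2194147-2203111, peaks of 1599 and 3961 bp, 320 bp apart, had the same score, 62.75, which gives each a pileup of 196 and 4.47 times the background (3.86 to 5.14). The 416 bp peak 6786995 to 6787410 scored 64.31, off the series, beside 1 weak neighbour. The 10 highest scores thus came from peaks as narrow as 416 bp and as wide as 5912 bp.

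**Figure D4:**
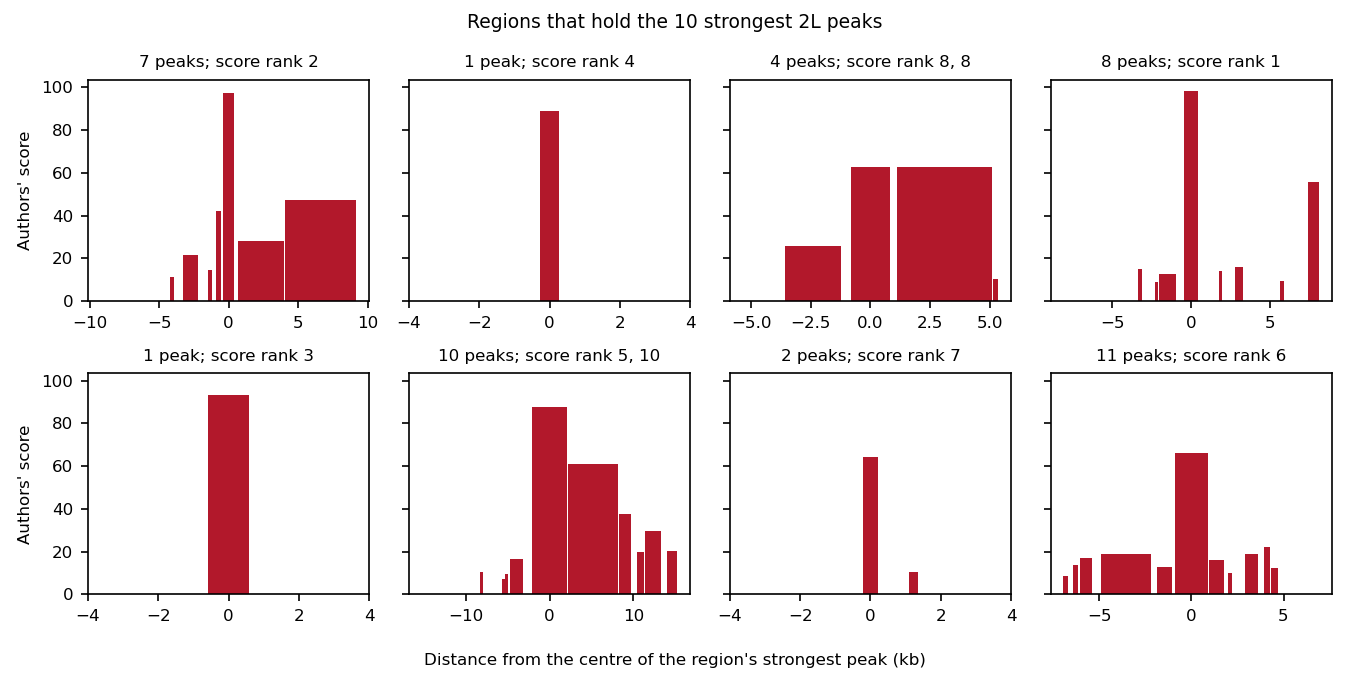
Each panel is 1 of the 8 regions that hold the 10 highest scores on 2L, with every peak of the region drawn as a bar to scale, distance in kb from the centre of the strongest peak on the x axis and the authors' score on the y axis. Tall peaks stand alone in 2 panels. In the region of 8 peaks a pair of tall peaks stands over low neighbours. In the region of 10 a tall peak stands beside a broad one at 4.40 times the background.

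Broad peaks, wider than 1 kb, were 7.56% of the members (43 of 569, exact 95% interval 5.52 to 10.0%) and covered 28.8% of the peak sequence. Of these 43, 35 lay in regions of 5 or more peaks. The 5 widest, of 5912, 5176, 4233, 3961 and 3610 bp, lay in 4 regions, all before 8 Mb. The last of them, 7418591 to 7422200, scored 28.48 and lay off the series. The nearest neighbour of each of the 5 was at most 223 bp away.

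No difference between 2L and the other arms was detected in 3 measures. Of the joined regions, 54.4% (105 of 193) held a single peak on 2L, against 55.8% (486 of 871) on the other 5 arms, a difference of −1.39 percentage points (95% interval −9.42 to 6.53; Fisher's exact test, two-sided, p = 0.75). Peaks wider than 1 kb were 7.56% of the peaks on 2L against 6.19% (148 of 2392) on the other arms, a difference of 1.37 points (−0.92 to 4.03; Fisher's exact test, p = 0.25). In the top 25% by score were 26.9% of the peaks on 2L (153 of 569) against 25.6% (612 of 2392), a difference of 1.30 points (−2.72 to 5.52; Fisher's exact test, p = 0.52). Adjusted over the 3 comparisons, each p was 0.75. None passed, which does not show that the arms are alike; the intervals give the differences these counts allow. The tests take peaks and regions as independent, though peaks of 1 region are not. No interval was left out on the other arms, while the *Hr39* interval was left out on 2L.

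**Figure D5:**
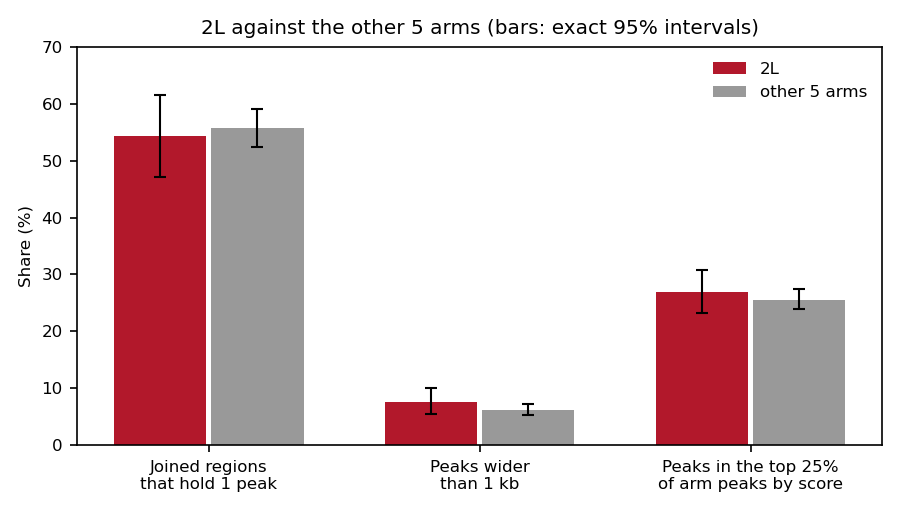
Bars give the share of joined regions with a single peak, of peaks wider than 1 kb and of peaks in the top 25% of arm peaks by score, in percent, for 2L and for the other 5 arms together; error bars are exact 95% intervals of each share. The error bars of the pair overlap in all 3 measures.

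The joined region with most peaks on 2L held fewer than that of 3 other arms. The highest count in a joined region on 2L was 16 peaks, against 71 on 3L, 36 on 3R, 35 on 2R and 13 on X. Its strongest peak scored 98.48, against 483 on X, 155 on 3R, 142 on 2R and 103 on 3L. These are extremes of 1 list and were not tested. The other arms kept all their peaks, while 2L lacked those of the *Hr39* interval.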

How the data were processed

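The authors deposited 1 peak list for the series, called with MACS in FlyBase release 5 coordinates per the file headers, with a score per peak. Per the submitters' processing notes, MACS2, BWA, the build BDGP5 and CASAVA (1.7.0.3 and 1.7.0.2) were involved, in roles not given. The sources used here do not give the unit of the deposited score, the threshold, the filters or whether replicates were pooled. Start and end columns give widths and gaps. Depth per library is unknown.

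The score's background was fitted to the values shared by at least 10 peaks, minimising the mean distance (0.00298 score units) to −log10 Poisson tails of whole numbers, and peaks within 0.01 were given a pileup. This reading of the score comes from its values. If the probability is that of more than k fragments instead of k or more, each pileup is 1 lower. Whether replicates came from separate cultures is not stated. Shares have Clopper-Pearson intervals, their differences intervals by Newcombe's method from these. All of them take peaks, gaps or regions as independent, though peaks and gaps of 1 region are not. Adjustment was by Benjamini-Hochberg. Peaks within 5 kb were joined.

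Named were all regions of 10 or more peaks, the 10 highest scores, 5 widest peaks, 3 highest folds and 3 longest empty stretches; other peaks were chosen after their values were seen. The members, lists and tests were chosen with earlier results of these data known. The planned gene and motif steps were not run, since the gene table used here is Release 6. Procedures were tested on simulated data. Tools were scipy 1.17.1, pandas 2.3.3, numpy 2.4.6 and matplotlib 3.10.9 under Python 3.11.15.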

Additional observations from a re-analysis of the deposited data

How the results depend on the processing

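No paired analysis was possible because the authors' list gives 1 score per peak over all libraries, and for the same reason no replicate could be left out. Of 16 alternative values, 10 were classed as keeping their direction and their side of the threshold or as moving little. The 193 joined regions became 313 with peaks joined at 1 kb. They fell to 134 with peaks joined at 20 kb and to 140 among the top 50% of arm peaks by score. Both falls were classed as moving little, but that class is broad, and the region count was not stable across these settings. The 13 regions of 10 or more peaks became 3 at 1 kb and 1 among the top 50% of arm peaks by score, since both settings leave fewer peaks to a region. In that top 50% the median width was 459 bp instead of 329 bp. The share on the score series, 75.0%, became 80.1% with a tolerance of 0.015. The difference in single-peak regions between 2L and the other arms, −1.39 points, became 2.43 points with peaks joined at 20 kb (Fisher's exact test, adjusted p = 0.63). With peaks joined at 1 kb it was larger, −5.60 points, 63.9% against 69.5% (Fisher's exact test, p = 0.059, adjusted p = 0.18). It passed at none of these distances. The share of peaks in the top 10% by score was 12.8% on 2L and 9.82% on the other arms, which passed unadjusted but not adjusted over the 3 comparisons (Fisher's exact test, p = 0.039 and 0.12).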

Other observations

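The 9 peaks left out with the *Hr39* interval ran from 21237593 to 21252109 with scores of 9.14 to 21.95. By midpoint, the nearest member before the interval lay 0.27 kb away, a 224 bp peak with a score of 8.98. The nearest after it lay 40.3 kb away, a 269 bp peak with a score of 10.79. Neither of these members was in the top 25% of arm peaks by score, but the left-out peak with a score of 21.95 was. With peaks up to 20 kb apart joined, 5 regions of 2L held 20 or more peaks. The one with most peaks, chr2L:12462734-12546156, had 29 over 83423 bp with 15.1% covered. Its highest score, 22.40, ranked 87 on the arm, so the largest string of peaks at that distance held none of the tall peaks.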
